A study of Mus musculus with 18 samples.

Results

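Hmgcs1, Idi1, Fdft1, Sqle, Lss, Cyp51 and Insig1 were followed across small intestinal crypts of PRMT1-deleted and control mice. These 7 genes were taken by symbol from a count table of 55335 genes, and all 7 were abundant enough to be tested. The first 6 encode enzymes of cholesterol synthesis and Insig1 encodes a regulator of the pathway, so that the set holds no uptake receptor, and uptake genes were read from a separate list. PRMT1, protein arginine methyltransferase 1, adds methyl groups to arginines of histones and other proteins. KO mice had LoxP sites in both copies of the gene (PRMT1 fl/fl) and also a tamoxifen-inducible Cre driven by the villin promoter, which is active in intestinal epithelial cells, and WT mice were PRMT1 fl/fl littermates without Cre. All mice, KO and WT, received tamoxifen at 2 mg per injection, with 2 injections before collection on day 2 and 5 before days 7 and 14, counted from the first injection. They were 8 to 12 weeks old, and their sex was not in the labels used here. Each of the 6 groups (KO and WT at days 2, 7 and 14) had 3 libraries, 1 per mouse, which makes 18 in all.

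Cells make cholesterol from acetyl-CoA through HMG-CoA, mevalonate, isoprenoid phosphates, squalene and lanosterol. When sterols in the endoplasmic reticulum fall, the transcription factors SREBP1 and SREBP2, escorted by SCAP, leave for the Golgi, are cut and enter the nucleus, where they raise transcription of synthesis and uptake genes together. INSIG proteins hold SCAP back when sterols are high, and Insig1 is itself a target of these factors. The small intestine both absorbs cholesterol and synthesizes it, and crypts are a known site of this synthesis.

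Total counts ranged from 12844642 to 31493484 per library, with 154 counts as the lowest value of any of the 7 genes in any library, in Idi1. Levels are given as CPM, counts brought to a common library total with TMM scaling. A gene is said to have changed where its p in edgeR's quasi-likelihood test was under 0.05 after Benjamini-Hochberg adjustment for the 21349 genes tested. Prmt1 itself was lower in every KO library than in every WT library of its day, with KO means at 54.1%, 66.4% and 60.9% of the WT means on days 2, 7 and 14. Replicates of each group differed from each other by far more than counting noise.

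Promoter stretches of 3 genes are shown with elements of the kind that SREBP and its partner factors bind. The part of these elements in the values of the 7 genes was not tested. RefSeq windows from 250 bases before to 50 bases after the gene start were held for 5 of the 7 genes, namely Hmgcs1, Idi1, Lss, Cyp51 and Insig1. Each stretch is printed 5′ to 3′ on the plus strand of GRCm38.p6 and stops before the first annotated transcript start. Capitals mark TCACNCCAC (a sterol regulatory element form), CACGTG (an E-box), CCAAT (the NF-Y core) and GGGCGG (the SP1 core), each searched on both strands, so that ATTGG and CCGCCC are the reverse forms.
Hmgcs1 chr13:119690101-119690350: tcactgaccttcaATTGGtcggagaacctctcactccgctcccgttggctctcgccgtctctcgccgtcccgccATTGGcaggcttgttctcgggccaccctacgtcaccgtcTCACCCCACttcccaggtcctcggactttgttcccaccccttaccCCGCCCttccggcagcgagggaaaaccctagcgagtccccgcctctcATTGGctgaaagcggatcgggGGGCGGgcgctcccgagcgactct
Lss chr10:76531355-76531587: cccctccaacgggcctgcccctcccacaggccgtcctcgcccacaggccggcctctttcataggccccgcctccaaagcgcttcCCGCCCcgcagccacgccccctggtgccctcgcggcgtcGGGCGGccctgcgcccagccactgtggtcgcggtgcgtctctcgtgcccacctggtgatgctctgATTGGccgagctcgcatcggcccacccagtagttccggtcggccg
Insig1 chr5:28071162-28071362: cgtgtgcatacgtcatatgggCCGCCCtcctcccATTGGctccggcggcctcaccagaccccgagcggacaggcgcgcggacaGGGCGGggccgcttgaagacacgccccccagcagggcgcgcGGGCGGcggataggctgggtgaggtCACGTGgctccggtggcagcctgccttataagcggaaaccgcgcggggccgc
CCAAT and GGGCGG each occurred in all 5 windows, beside 37.4% and 35.7% of 32851 mouse promoter windows of the same length. TCACNCCAC occurred in 1 of the 5, Hmgcs1, at position -137 from the RefSeq start, beside 1.24% of all windows. CACGTG occurred in 1 of the 5, Insig1, at position -101, beside 7.15% of all windows. Of 12 other synthesis genes with a window, 0 held TCACNCCAC, 3 held CACGTG, 11 held CCAAT and 11 held GGGCGG. None of the matches in these 5 windows overlapped another. A match describes letters only and was not tied to binding in these crypts.

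On day 2 after the first injection the 7 genes did not separate KO from WT crypts. By edgeR's quasi-likelihood test 0 of 7 changed, 0 of 7 had an unadjusted p under 0.05 and DESeq2's Wald test also called 0, beside 0.0328% of all genes changed on that day. Of all 21349 genes, 710 had an unadjusted p under 0.05 by edgeR's test, and DESeq2 called 13. The log2 fold changes of the 7 lay between -0.09 for Idi1 and 0.14 for Sqle, with a median of 0.08 (-0.054 to 0.22 when 1 library was left out) beside -0.0048 over all genes. The 95% intervals of all 7 excluded a 2-fold difference in either direction, with outer bounds of -0.58 and 0.67. On day 7 again 0 of 7 changed, 0 of 7 had an unadjusted p under 0.05 and DESeq2 called 0, whereas 17.3% of all genes changed. Of all 21349 genes, 6376 had an unadjusted p under 0.05 by edgeR's test on day 7, and DESeq2 called 4135. In 0 of 7 did the 3 KO libraries lie apart from the 3 WT libraries on day 2 or day 7, beside 8.16% and 33.6% of all genes, and on day 14 this was so in 1 of 7, beside 26.5%. The fold changes ran from -0.17 for Fdft1 to 0.50 for Insig1, 6 of 7 were above 0, and their median was 0.27 (0.14 to 0.43 when 1 library was left out) beside 0.02 over all genes. On day 14 Lss alone rose, 1 of 7 beside 7.92% of all genes (3.23% in the upward direction), and the median was 0.16 (0.054 to 0.25 when 1 library was left out) beside 0.0022 over all genes.

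**Figure D1:**
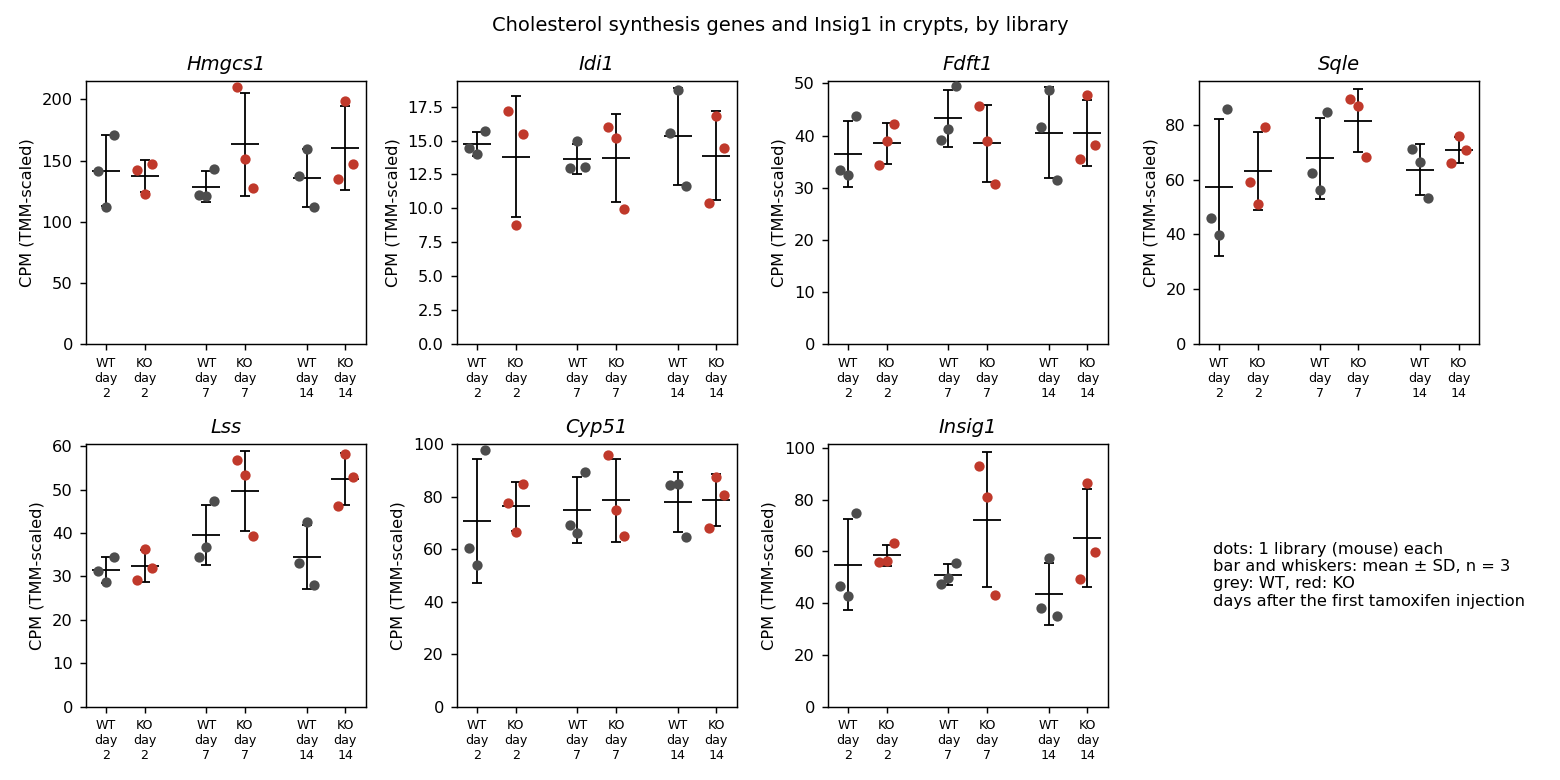
TMM-scaled CPM (y axis, from 0) of each of the 7 genes in the 6 groups (x axis), with 1 dot per library and the mean ± SD of 3 libraries as bar and whiskers (grey WT, red KO). In Lss all 3 KO libraries of day 14 (46.3 to 58.1 CPM) lie above all 3 WT libraries of that day (27.9 to 42.5 CPM), and in the other 6 genes the groups of each day overlap.

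Hmgcs1 (ENSMUSG00000093930.2, chr13:119690379-119708260, plus strand, mm10) encodes cytosolic HMG-CoA synthase, which makes HMG-CoA, the substrate of the rate-limiting reductase. It had the highest level per kilobase of exon of the 7 genes in all 6 groups, with a mean of 31.5 CPM per kilobase over the 18 libraries. On day 7 its level was 210, 152 and 128 CPM in KO and 122, 121 and 143 CPM in WT. The 2 highest KO libraries stood above all WT libraries and the lowest lay among them. The log2 fold change was 0.34 (SE 0.20, 95% interval -0.07 to 0.75, adjusted p = 0.259). On day 14 KO had 135, 199 and 147 CPM and WT had 137, 159 and 112 CPM, and the fitted log2 difference was 0.24 (SE 0.20, adjusted p = 0.543). Here 1 KO library was highest and the others lay within the WT range.

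Idi1 (ENSMUSG00000058258.14, chr13:8885501-8892451, plus strand), the isomerase that interconverts the isopentenyl building blocks, and Fdft1 (ENSMUSG00000021273.11, chr14:63145150-63179578, minus strand), squalene synthase, varied little between group means. Over the 6 groups, the highest mean was 1.12 times the lowest in Idi1 and 1.19 times in Fdft1. Single libraries spanned 8.79 to 18.8 CPM in Idi1 and 30.8 to 49.5 CPM in Fdft1. The span within 1 group was thus wider than that between group means: the 3 KO libraries of day 2 alone had 17.2, 8.79 and 15.5 CPM of Idi1. Idi1 had log2 fold changes of 0.01 on day 7 (95% interval -0.48 to 0.49) and -0.15 on day 14 (-0.64 to 0.35). Fdft1 had -0.17 on day 7 (-0.54 to 0.20) and -0.0046 on day 14 (-0.37 to 0.37). The intervals of both genes on these days excluded a 2-fold difference in either direction.

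Sqle (ENSMUSG00000022351.14, chr15:59315077-59331192, plus strand) encodes squalene epoxidase, a flux-controlling oxygenation step after squalene. On day 7 it had 89.4, 86.7 and 68.3 CPM in KO and 62.4, 56.2 and 84.5 CPM in WT. Both genotypes had high and low libraries, and the fitted log2 fold change was 0.27 (SE 0.24, adjusted p = 0.498). On day 14 KO had 66.0, 75.8 and 70.7 CPM and WT had 71.3, 66.3 and 53.2 CPM, a fitted log2 difference of 0.16 (SE 0.24, adjusted p = 0.780). The KO values were close together and overlapped WT. Its widest spread was in WT crypts of day 2, where replicate 3 had 85.9 CPM and the other libraries 46.0 and 39.9 CPM.

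Lss (ENSMUSG00000033105.12, chr10:76531588-76557138, plus strand) encodes lanosterol synthase, which closes 2,3-oxidosqualene into the first sterol of the pathway. On day 14 it had 46.3, 58.1 and 53.0 CPM in KO and 33.2, 42.5 and 27.9 CPM in WT. All KO libraries were above all WT libraries, a separation that 12.4% of all genes showed in this direction. Lss rose 1.52-fold in KO crypts, a log2 fold change of 0.60 (SE 0.17, 95% interval 0.25 to 0.95, adjusted p = 0.0324). On day 7 the KO libraries had 56.7, 53.2 and 39.3 CPM and the WT libraries 34.4, 36.8 and 47.4 CPM. Here 2 KO libraries were highest and the third lay within the WT range, which gave a fitted log2 difference of 0.33 (SE 0.17, 95% interval -0.02 to 0.68, adjusted p = 0.195). On day 2 the groups overlapped at 29.1, 36.2 and 31.8 CPM in KO and 31.2, 28.6 and 34.5 CPM in WT, and the fitted log2 difference was 0.04 (SE 0.17). The KO effect was larger on day 14 than on day 2 by 0.56 (95% interval 0.06 to 1.06, unadjusted p = 0.0306), which did not pass adjustment over all genes (adjusted p = 0.348).

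The day 14 call of Lss was close to the threshold. It was lost when only the 2 groups compared were fitted (log2 fold change 0.60, adjusted p = 0.0517). It was also lost without KO day 14 replicate 2 (0.54, adjusted p = 0.111), KO day 14 replicate 3 (0.60, 0.0833), WT day 14 replicate 1 (0.58, 0.0866) or WT day 14 replicate 3 (0.48, 0.131). Without KO day 7 replicate 3, which had the lowest value of its group in all 7 genes, 2 of 7 genes changed on day 7, Lss by 0.50 (adjusted p = 0.0400) and Insig1 by 0.79 (adjusted p = 0.0282). Over the 6 fits without 1 library, 2051 to 4117 of all genes changed on day 7. Leaving out the lowest KO library raises the KO mean by construction.

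Cyp51 (ENSMUSG00000001467.5, chr5:4081145-4104746, minus strand), the sterol 14-demethylase that acts on lanosterol, had nearly the same mean in every group, from 70.6 ± 23.6 CPM in WT of day 2 to 78.7 ± 9.74 CPM in KO of day 14 (SD, n = 3). The highest group mean was 1.11 times the lowest. Its log2 fold changes were 0.11, 0.07 and 0.01 on days 2, 7 and 14, and the day 14 interval ran from -0.41 to 0.43.

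Insig1 (ENSMUSG00000045294.11, chr5:28071363-28078662, plus strand), the sterol-responsive anchor of SCAP, had fold changes near those of Lss with wider intervals. On day 7 it had 92.9, 80.9 and 43.1 CPM in KO and 47.6, 49.8 and 55.7 CPM in WT. KO libraries were both the highest and the lowest of that day, and the log2 fold change was 0.50 (SE 0.27, adjusted p = 0.236). On day 14 it had 49.3, 86.3 and 59.8 CPM in KO and 38.3, 57.3 and 35.0 CPM in WT. Here 2 KO libraries exceeded every WT library and the third fell between WT values, and the fitted log2 difference was 0.58 (SE 0.28, 95% interval -0.01 to 1.16, unadjusted p = 0.0519, adjusted p = 0.236). Under each of the 3 replicate numbers of day 14 the KO library was the higher, but the labels do not say that same-numbered mice are pairs. How many of all genes are ordered in this way was not counted. The interval of Insig1 was the only one of the 7 on day 7 and on day 14 that reached a 2-fold increase.

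**Figure D2:**
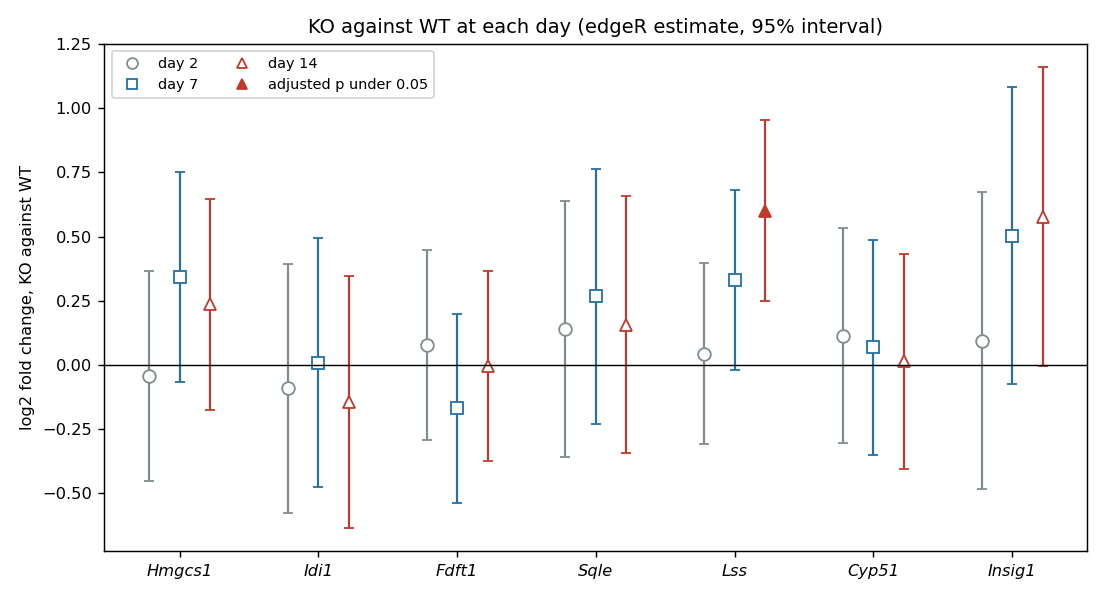
Log2 fold change of KO against WT (y axis) of each gene (x axis) on days 2, 7 and 14, with 95% intervals of edgeR's fit and a filled symbol where the adjusted p was under 0.05. The filled symbol is Lss on day 14 (0.60), and the intervals of the other 20 estimates include 0.

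Over time, Lss was again the gene called. In KO crypts it was higher on day 7 than on day 2 (log2 fold change 0.62, SE 0.17, adjusted p = 0.0164) and higher on day 14 than on day 2 (0.69, SE 0.17, adjusted p = 0.0124), and the libraries of day 2 lay below all libraries of both later days, as they did for 14.9% and 14.8% of all genes. These comparisons share the KO libraries of day 2, and the day 14 libraries also enter the comparison with WT. Of the 7 genes, 1 thus changed in each, beside 16% and 11.3% of all genes. Without 1 library the Lss log2 fold change stayed positive, at 0.53 to 0.78 for day 7 and 0.62 to 0.79 for day 14 against day 2. The day 7 call was lost without KO day 2 replicate 1 (adjusted p = 0.0823) or 3 (0.0589) and without KO day 7 replicate 1 (0.0691) or 2 (0.0595), and the day 14 call without KO day 2 replicate 1 (0.0660) or 3 (0.0528). Between days 7 and 14 of KO, 0 of 7 changed (0.0468% of all genes) and Lss differed by 0.08 (SE 0.17).

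In WT crypts none of the 7 changed between any days by edgeR's quasi-likelihood test, with 0 of 7 at an unadjusted p under 0.05 and 0 by DESeq2 in each comparison. The shares of all genes changed were 0.553% for day 7 against day 2, 1.61% for day 14 against day 2 and 0.0796% for day 14 against day 7. In the same order, 4792, 4271 and 1105 of all 21349 genes had an unadjusted p under 0.05 by edgeR's test. Lss in WT stood at 31.4 ± 2.96 CPM on day 2, 39.5 ± 6.94 CPM on day 7 and 34.5 ± 7.37 CPM on day 14 (SD, n = 3). Differences between the KO effects of 2 days were called for 0 of 7 genes in each of the 3 pairs of days, also by DESeq2, beside 4.37% (days 7 and 2), 1.04% (days 14 and 2) and 0% (days 14 and 7) of all genes, with 953 genes at an unadjusted p under 0.05 in the last. Lss, for days 14 and 2, was the sole member with an unadjusted p under 0.05. Of all 21349 genes, 3858 (days 7 and 2) and 2549 (days 14 and 2) had such a p by edgeR's test.

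Ordered by group mean, KO of day 7 or day 14 was highest in Hmgcs1, Sqle, Lss, Cyp51 and Insig1, and WT was highest in Idi1 (day 14) and Fdft1 (day 7). In all 7 genes each group overlapped its neighbour in this order. The highest group mean was 1.67 times the lowest in Lss, 1.66 times in Insig1, 1.42 times in Sqle and 1.27 times in Hmgcs1. On the scale of CPM per kilobase of exon, Insig1 (18.6) and Cyp51 (17.2) followed Hmgcs1 over the 18 libraries, then Sqle (12.1) and Fdft1 (9.63), and Idi1 (4.05) and Lss (3.71) were lowest. The length used for Lss, 10787 bases, is the longest of the 7 and lowers its value on this scale.

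The 7 genes moved together from mouse to mouse. Over the 18 libraries all 21 pairs had a positive Pearson r of log2 CPM, from 0.12 (Idi1 and Lss) to 0.87 (Sqle and Cyp51), with a median of 0.65. With each group's mean subtracted, all 21 remained positive, from 0.42 to 0.94, with a median of 0.74. Within their own groups, all 7 genes were above the group mean in 4 libraries and all 7 below it in 5. The libraries above were WT day 2 replicate 3, KO day 7 replicate 1, KO day 14 replicate 2 and WT day 14 replicate 2, and those below were WT day 2 replicate 2, KO day 7 replicate 3, WT day 7 replicate 1, KO day 14 replicate 1 and WT day 14 replicate 3. These correlations are descriptions of 18 libraries that share 1 table and 1 scaling, with no test.

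**Figure D3:**
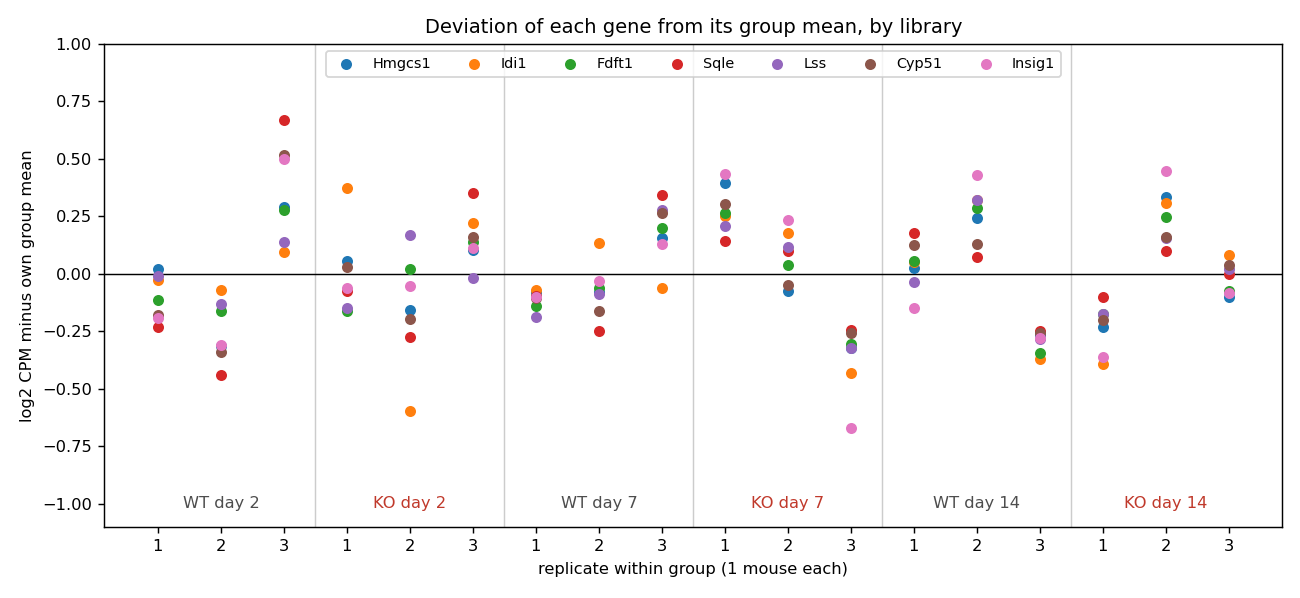
Log2 CPM of each of the 7 genes minus the mean of its own group (y axis) in the 18 libraries (x axis, replicates 1 to 3 of each group), with 1 colour per gene. The 7 dots lie on the same side of 0 in 9 of 18 libraries, for example all above in KO day 14 replicate 2 and all below in KO day 7 replicate 3.

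Averaged as z scores over the 7 genes, the libraries ranged from -1.28 (WT day 2 replicate 2) and -1.23 (WT day 14 replicate 3) to 1.28 (KO day 14 replicate 2) and 1.45 (KO day 7 replicate 1). The group means of this average ran from -0.41 ± 1.09 in WT of day 2 to 0.44 ± 1.13 in KO of day 7 (SD, n = 3), and the spread within groups was as wide as the differences between them. The average had r = 0.15 with the log2 total count over the 18 libraries, and with group means subtracted r was 0.25. For values with group means subtracted, here and in brackets below, the mean log2 CPM of the 7 genes was used without scaling to z scores. With the summed CPM of 8 stem cell markers the average had r = -0.49 (-0.48 with group means subtracted), and with that of 12 enterocyte markers 0.24 (0.42). For 7 Paneth cell markers it was -0.19 (0.20) and for 12 proliferation markers -0.33 (-0.01). KO day 7 replicate 1, highest for the 7 genes, had the lowest stem cell sum (361 CPM) and the lowest Paneth cell sum (1410 CPM) of all libraries. The part of cell composition in this shared variation was not tested, and in bulk crypts fewer cells of a type and less RNA per cell cannot be told apart.

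Among the other 21342 genes tested, those most like the 7 included several of the same pathway. By Pearson r with the average over 18 libraries, the highest 10 included Fdps, farnesyl diphosphate synthase (0.92), Mvk, mevalonate kinase (0.90), and Msmo1, methylsterol oxidase (0.85), together with Gorasp2 (0.84), Cops8 (0.84) and the noncoding or predicted genes Gm48342 (0.91) and Gm43738 (0.90). With group means subtracted the first 10 were Fdps (0.96), Gm43738 (0.96), Gm48342 (0.95), Lias (0.95), Gorasp2 (0.94), Msmo1 (0.93), Hsd17b7 (0.93), Rab35 (0.93), Hdlbp (0.92) and Mien1 (0.92). Fragments were counted for every gene they overlap without regard to strand. Gm48342 shares 557 exonic bases with Hmgcs1 and Gm43738 shares 1124 with Fdps, so that reads in the shared bases cannot be assigned to either partner. Of a list of 15 other synthesis genes, all 15 had r above 0.5 with group means subtracted, beside 17.7% of all other genes, with a median of 0.87 beside -0.03. Over the 18 libraries as they are, 11 of 15 had r above 0.5, beside 7.49% of all other genes. The medians with group means subtracted were lower in the lists of regulators (0.60), uptake and transport (0.53), efflux and esterification (0.30), fatty acid synthesis (0.63) and isoprenoid use (0.53).

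Relative to the other 6 genes, Lss and Insig1 were higher and 3 of the 7 genes lower in every KO than in every WT library of day 14. This measure, log2 CPM of the gene minus the mean log2 CPM of the other 6, was chosen after the values had been seen and carries no test. On day 14 it was for Lss -0.03, -0.21 and -0.05 in KO and -0.66, -0.50 and -0.56 in WT. The means of Lss differed by 0.47. For Insig1 it was 0.08, 0.46 and 0.15 in KO and -0.41, 0.0036 and -0.18 in WT, with means of 0.23 ± 0.20 and -0.20 ± 0.21 (SD, n = 3). Of the other 5 genes Idi1, Fdft1 and Cyp51 were lower in every KO than in every WT library of day 14, with mean differences of -0.41, -0.24 and -0.23, and Hmgcs1 (0.02) and Sqle (-0.05) overlapped. Set against the mean of the 7 genes, 3.06% of all genes were higher and 15.7% lower without overlap on that day. The values of the 7 are tied to each other, since a gene above the other 6 lowers each of them on this measure. On day 7 the measure for Lss was -0.31, -0.18 and -0.17 in KO and -0.49, -0.41 and -0.30 in WT, with 1 KO library within the WT range. Fdft1 alone was without overlap on day 7, lower in every KO than in every WT library, with a mean difference of -0.41. On day 2 the measure for Lss was -0.86, -0.31 and -0.88 in KO and -0.54, -0.52 and -0.91 in WT, and the means differed by -0.03.

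**Figure D4:**
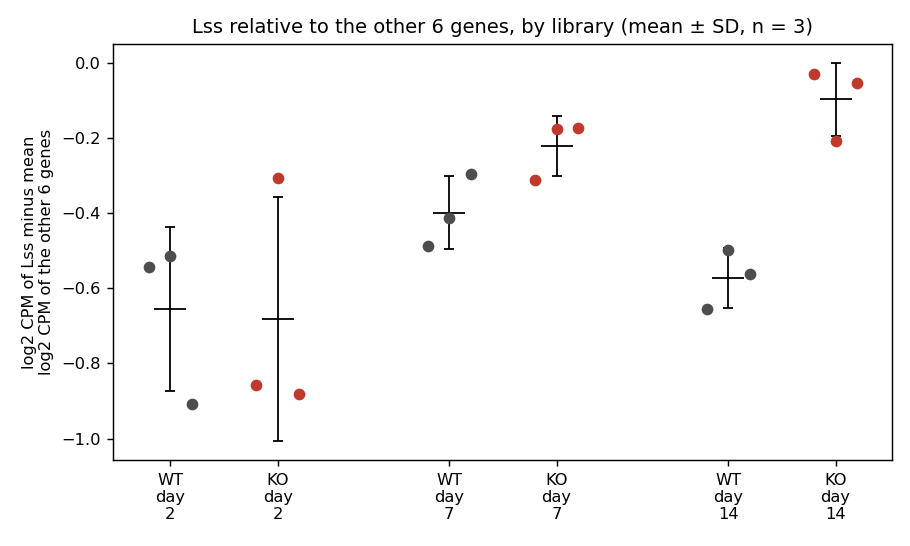
Log2 CPM of Lss minus the mean log2 CPM of the other 6 genes (y axis) by library in the 6 groups (x axis), with 1 dot per library and the mean ± SD of 3 libraries (grey WT, red KO). The KO libraries of day 14 lie between -0.21 and -0.03 and the WT libraries of that day between -0.66 and -0.50. Of the genes not plotted, Insig1 was also higher and Idi1, Fdft1 and Cyp51 were lower in all KO than in all WT libraries of that day.

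Exons of 5 of the 7 genes overlap exons of another gene on the opposite strand in the table's annotation. Lss shares 381 of its 10787 exonic bases with 4930483K19Rik, which averaged 4.57 CPM and had a log2 fold change of 0.56 on day 14 (adjusted p = 0.175). Fdft1 shares 774 of 4116 bases with Ctsb, a lysosomal protease gene at 256 CPM, with a log2 fold change of 0.05 on day 14 (adjusted p = 0.924). Cyp51 shares 166 of 4415 bases with Akap9 (355 CPM), Idi1 shares 323 of 3505 with Gm48574 (1.01 CPM), and Sqle and Insig1 overlap none. Without strand, reads in the shared bases cannot be assigned to either gene, and their part in the values was not tested.

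The rest of the sterol pathway was read from 6 lists of 74 genes in all. The counts of each list are read against the shares of all genes changed, 17.3% on day 7 and 7.92% on day 14. Of 15 other synthesis genes 1 changed on day 7, upwards, a smaller share than over all genes, and 0 on day 14. The gene was Pmvk, phosphomevalonate kinase, at 21.3 ± 6.18 CPM in KO crypts beside 11.7 ± 0.82 CPM in WT crypts (SD, n = 3; log2 fold change 0.86, SE 0.21, adjusted p = 0.0085). The median of the list was 0.26 on day 7 and 0.13 on day 14, near the medians of the 7 genes. Of 16 regulators of sterol sensing 2 changed on day 7, also a smaller share than over all genes, and 0 on day 14. Those that rose were Insig2, the second INSIG protein (0.55, adjusted p = 0.0254), and Ube2g2, a ubiquitin-conjugating enzyme of endoplasmic reticulum degradation (0.48, adjusted p = 0.0240). Srebf1, which encodes SREBP1, had log2 fold changes of 0.43 and 0.60 on days 7 and 14 (adjusted p = 0.215 and 0.115), Srebf2 0.21 and 0.26 (0.382 and 0.362) and Scap 0.14 and 0.13 (0.539 and 0.645).

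Of 12 genes of uptake and intracellular transport, 2 rose on day 7 and 1 on day 14, shares close to the 17.3% and 7.92% of all genes. Scarb1, a lipoprotein receptor, was on day 7 at 14.8 ± 4.21 CPM in KO crypts beside 5.38 ± 3.22 CPM in WT crypts (SD, n = 3; log2 fold change 1.43, SE 0.38, adjusted p = 0.0162), and its day 14 value of 1.23 had an adjusted p of 0.0740. Stard3, a late endosomal cholesterol transfer protein, rose on both days (0.53 and 0.55, adjusted p = 0.0070 and 0.0121). Of 9 genes of efflux and esterification, Abcg1, a sterol exporter, rose on day 7 (0.89, adjusted p = 0.0185), and Soat1, which esterifies cholesterol, fell on both days (-0.63 and -0.53, adjusted p = 0.0026 and 0.0159).

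Several genes of fatty acid synthesis are further SREBP targets. Of 12 on this list, 4 rose and 1 fell on day 7, and 2 rose and 1 fell on day 14, beside 17.3% and 7.92% of all genes changed in either direction. Scd1, the stearoyl-CoA desaturase, was at 256 ± 221 CPM in KO and 12.2 ± 4.52 CPM in WT on day 7 and at 129 ± 33.8 and 12.2 ± 2.58 CPM on day 14 (SD, n = 3). Its log2 fold changes were 4.41 and 3.41 (adjusted p = 0.00011 and 0.0013). Me1, malic enzyme, rose by 1.86 and 1.17, Scd2 by 1.16 and Acly, ATP-citrate lyase, by 0.42 on day 7, and Fads1, a fatty acid desaturase, fell on both days (-0.76 and -0.92). Coq2, which builds ubiquinone, was the member of the 10 isoprenoid genes that changed, and it fell on both days (-0.79 and -0.62, adjusted p = 3.1e-05 and 0.00071).

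**Figure D5:**
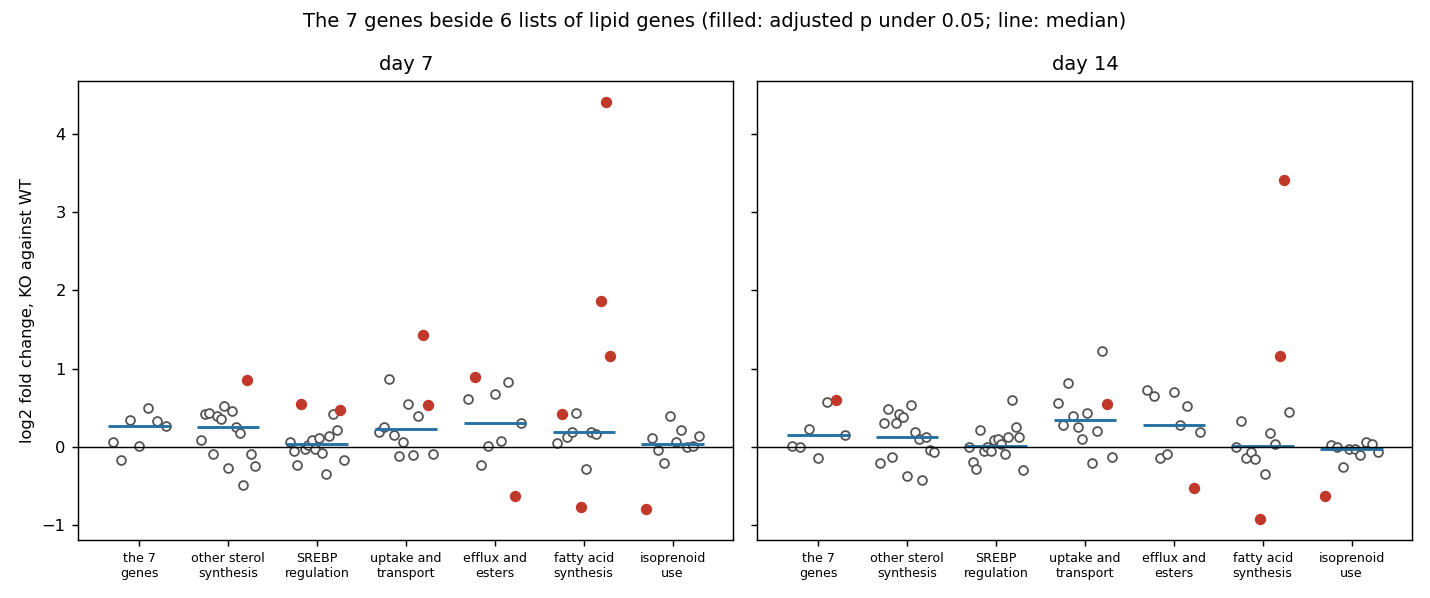
Log2 fold change of KO against WT (y axis) on day 7 (left) and day 14 (right) for the 7 genes and for 6 lists of lipid genes (x axis), with 1 dot per gene, filled where the adjusted p was under 0.05, and a line at the list's median. Lss is the filled dot among the 7 genes on day 14, and the highest dots are Scd1 in the fatty acid list (4.41 and 3.41).

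Cell type markers were read beside these values and against the same 17.3% and 7.92% of all genes changed. Epithelial genes were abundant in every library. Of 9, Cdx1 was lower on day 7 (-0.43, adjusted p = 0.0483), a smaller share than over all genes, and 0 changed on day 14. All 10 enteroendocrine markers were higher in KO both on day 7 (sums of 715 to 898 CPM beside 316 to 339 CPM in WT), and on day 14 (837 to 977 beside 289 to 355 CPM). Of 12 enterocyte markers 3 were higher and 1 lower on day 7 (14096 to 21591 beside 9701 to 11738 CPM), and 1 was higher on day 14 (11022 to 20463 beside 4485 to 11759 CPM), the latter count close to the share of all genes. Called or not, 10 and 9 of these 12 had fold changes above 0 on days 7 and 14. Their median log2 fold changes were 0.59 and 1.03, beside 0.02 and 0.0022 over all genes. Paneth cell markers were lower, 7 of 7 on day 7 (1410 to 3971 beside 8993 to 14970 CPM) and 1 of 7 on day 14 (5488 to 7266 beside 9192 to 20388 CPM). Stem cell markers were lower in 6 of 8 on day 7 (361 to 889 beside 1362 to 1769 CPM) and 1 of 8 on day 14 (1306 to 1543 beside 1647 to 1830 CPM), and proliferation markers in 1 of 12 (1019 to 1311 beside 1169 to 1345 CPM) and 3 of 12 (1050 to 1201 beside 1271 to 1597 CPM), of which the day 7 count was a smaller share than over all genes. Of 7 goblet cell markers, Fcgbp and Clca1 were lower on day 7 and Clca1 on day 14, while 5 and 4 of the 7 had fold changes above 0 that were not called (medians of 0.17 and 0.13). Their sum (10383 to 13792 beside 13507 to 15919 CPM on day 7 and 10611 to 12550 beside 12785 to 13098 CPM on day 14) was made up most by Fcgbp, at 5095 beside 8967 CPM on day 7. On day 7, 1 of 5 tuft cell markers tested was lower (23.9 to 57.1 beside 63.9 to 73.7 CPM) and 2 of 10 stromal markers were higher (48.1 to 101 beside 29.9 to 67.9 CPM), and on day 14 0 of either list changed. Of 9 immune markers 0 changed on either day. Il25, a tuft cell marker, and Pdgfra, a stromal marker, were at 0 in at least 1 library, and no other marker of these lists was. Their part in the values of Lss and of the lipid genes was not tested.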

How the data were processed

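RNA-Seq was carried out by the study on ribosome-depleted total RNA of small intestinal crypts, with 1 library per mouse. The authors aligned reads to mm10 with STAR 2.7.3 and deposited 1 table of raw counts per gene from featureCounts 1.6.4. The table's header names GENCODE release 23 and the study's methods name release 26. Fragments were counted without strand and for every gene they overlap, and multiply aligned fragments were left out. 0 columns of per-sample values were left unused.

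The members and lists were chosen with earlier results of these data known. The 20 genes that the study removed for differing between sexes were left out before normalization. Genes were kept with filterByExpr, scaled with TMM and fitted with edgeR 4.0.16 (quasi-likelihood, robust, limma 3.58.1, R 4.3.3) over all 18 libraries with 1 mean per group. 12 comparisons were made. The test was checked on simulated counts. Intervals are 95% from the fitted standard error. DESeq2 1.42.0, other scalings and filters, a replicate block, a model of only the groups compared and the omission of each library were tried. The block was also fitted within each day, after same-numbered KO and WT libraries of day 14 had shown correlations of 0.16 to 0.23. The labels do not say that same-numbered mice are pairs. Log2 CPM for correlations used a prior count of 2.

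Genes were named by rule: the 7 members, Prmt1, central regulators, up to 6 genes per pathway list with the smallest adjusted p under 0.05 on day 7 or 14, and the 10 genes most correlated with the members, before and after subtracting group means. Some genes of that rule are not reported here. Promoter sequences are RefSeq's (GRCm38.p6). Sqle and Fdft1 had none.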

Additional observations from a re-analysis of the deposited data

How the results depend on the processing

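Of 343 values of single genes under the alternatives (7 genes on 3 days, and Lss over time in KO), 330 stayed on their side of the threshold, 11 lost the call, 2 gained it, and no called value changed sign. The Lss rise on day 14 was called under 8 of 9 settings other than omission of a library (adjusted p from 0.0067 to 0.0517) and in 2 of 6 fits without 1 library (0.0131 to 0.131). With a model of only the groups compared, 0 of 7 genes were called on day 14. Leaving out 1 library gave 0 to 1 of 7 on day 14, 0 to 2 on day 7, and 0 to 1 in the KO comparisons of day 7 and of day 14 with day 2. The median log2 fold change of the 7 on day 2 ran from -0.054 to 0.22 across these omissions, that on day 7 from 0.14 to 0.43 and that on day 14 from 0.054 to 0.25.

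All genes called on day 2 were 7 in the fit reported, 13 with DESeq2, 16 with no filter on low counts, 2 with a mean count of at least 50, 3 with a model of only the groups compared and 3 to 4 without 1 library. Without 1 library the genes called were 2051 to 4117 on day 7 (3690 with all) and 1041 to 1334 on day 14 (1690 with all). The causes were not tested, and each omission also leaves fewer samples.

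With the replicate number as a replicate block, 3 genes were called on day 2, Lss on day 14 had a log2 fold change of 0.61 (adjusted p = 0.0391), and the block changed no call of the 7 genes. The correlation of same-numbered KO and WT libraries ran from -0.16 to 0.38 and was over 0.1 in 2 of 3 pairs on day 2, 1 of 3 on day 7 and 3 of 3 on day 14, when each KO library also correlated best with its own number. With a replicate block within each day, chosen after seeing the data, Lss on day 14 had 0.62 (adjusted p = 0.0325) and Insig1 0.58 (unadjusted p = 0.0185, adjusted p = 0.113), 2106 genes were called on day 14, and no call of the 7 genes changed. The 10 genes most like the 7 were the same with a prior count of 0.5. A p over the threshold in these groups of 3 mice does not show that values did not differ.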
